A study of Mus musculus with 8 samples.

Results

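The genes of ribosome assembly in the nucleolus and of RNA polymerase I were followed in cultured mouse fat cells. They comprised 41 of the 43629 genes in the count table, and each matched 1 gene of the table by its symbol. The genes were listed by function and not by a measured value, but with earlier results of these data known. They fell into 5 roles: 6 box C/D snoRNP proteins and nucleolar chaperones, 4 box H/ACA snoRNP proteins, 7 genes of RNA polymerase I and its initiation factors, 12 genes of the small subunit processome and 40S maturation, and 12 genes of 60S assembly. Messenger RNA had been sequenced from 3T3-L1 cells, an established mouse pre-adipocyte line that becomes fat-storing in culture. All cultures were differentiated with insulin, dexamethasone, isobutylmethylxanthine and rosiglitazone, and treatment began on day 8 and lasted 24 h. The 4 groups were untreated cells, cells given A66, cells given palmitate, and cells given both, with 2 libraries in each group. A66 is an inhibitor of p110α, the PI3K catalytic subunit that acts downstream of the insulin receptor, and palmitate is a saturated fatty acid, supplied here bound to albumin at 0.5 mM. The labels give 2 μM A66 and a control left untreated, whereas 1 μM A66 and a DMSO vehicle stand in the methods. The replicates are called biological repeats without further detail, so that p-values measure the spread between these libraries, and all cultures derive from 1 cell line. Groups are named as labelled. A66 acts on an enzyme and no gene was deleted, so that no targeted transcript checks the labels, and it is unsettled whether the libraries labelled A66 and untreated could be exchanged. Were they exchanged, every difference between these 2 groups would turn in sign, and the comparisons that use 1 of them would have the other group in its place. The interaction uses both groups, and its values would change too.

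A ribosome is built mostly in the nucleolus. RNA polymerase I, brought to the ribosomal DNA by factors that include UBF (Ubtf) and TIF-IA (Rrn3), transcribes a long precursor RNA that holds most of the ribosomal RNAs. Box C/D snoRNPs methylate this RNA and box H/ACA snoRNPs convert chosen uridines to pseudouridine, each guided by a small nucleolar RNA. The small subunit processome then folds and cuts the part that becomes the 40S subunit, while other factors assemble the 60S subunit before both are exported. Insulin, PI3K and mTOR signalling is known to promote ribosome production, and MYC is a classical activator of many of these genes. The question put to the data was whether the mRNA of this machinery differed with A66, with palmitate, or with the combination. The RNA was selected by its poly(A) tail, so that ribosomal RNA itself, the product of RNA polymerase I, was not measured.

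Library totals ranged from 42247091 to 57529803 counts, and the 41 genes together took 0.338% to 0.369% of the counts. The lowest count of any of the 41 in any library was 396, for Polr1e, against a detection floor of 3 counts, equal to 0.0519 to 0.0707 CPM (counts scaled to a common library size by edgeR with TMM factors). All 41 passed the filter on low counts in every fit. The cells carried adipocyte mRNA, with Adipoq between 2049 and 2547 CPM, and other cell type markers were present too. Of 8 preadipocyte and fibroblast markers 7 had counts, with a summed level of 4196 to 4435 CPM in untreated cells, 4265 to 4371 with A66, 4348 to 4670 with palmitate and 3871 to 4121 with both, and Dlk1 had no count in any library. Of 7 macrophage and leukocyte markers 5 had counts, with sums of 5.79 to 6.66, 5.95 to 6.61, 7.53 to 7.92 and 7.79 to 8.79 CPM in the same order, and the defining markers Adgre1 and C1qa had none. Nearly all of each sum came from Cd68 and Lyz2. Ptprc, Itgam and Csf1r held at most 1, 3 and 15 counts in any library. The summed level of 10 adipocyte markers was 16908 to 17036 CPM in untreated cells, 16599 to 17176 with A66, 15068 to 15875 with palmitate and 14516 to 15478 with both. The sum of 10 proliferation markers was 126 to 140 CPM, 116 to 129 CPM, 128 to 129 CPM and 124 to 127 CPM in the same order.

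In untreated cells the nucleolar chaperones stood far above the rest of the machinery. Npm1 (nucleophosmin, a histone and ribosomal protein chaperone) reached 379 ± 4.1 CPM per kb of transcript (SD, n = 2) and Ncl (nucleolin) 80.5 ± 0.57. Both also ranked first and second when levels were taken per kb of coding sequence, at 706 for Npm1 and 311 for Ncl. The other members lay between 3.00 (Polr1e, an accessory subunit of RNA polymerase I) and 45.4 CPM per kb (Mybbp1a, a nucleolar Myb-binding protein). Within the polymerase, Ubtf (35.2 ± 0.99), Polr1d (31.1 ± 1.5), Polr1c (27.8 ± 0.29) and Rrn3 (27.5 ± 0.62) were close to each other, and the intervals spanned by Polr1c and Rrn3 overlapped. The largest catalytic subunit, Polr1a, was lower at 15.3 ± 0.58, and the second largest, Polr1b, at 5.43 ± 0.41 CPM per kb. The median of the small subunit processome genes was 10.1 CPM per kb, that of the 60S assembly genes 17.8, that of the box H/ACA genes 22.7, and that of the box C/D genes and chaperones 41.04. The order below the first 2 places depends on the length used. Nop10, with a coding sequence of 192 bases in a transcript of 1109 bases, was the fifth gene per kb of transcript and the third per kb of coding sequence, and Wdr12, whose annotated transcript is 10012 bases long, was at 3.17 per kb of transcript but at 25.04 per kb of coding sequence.

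**Figure D1:**
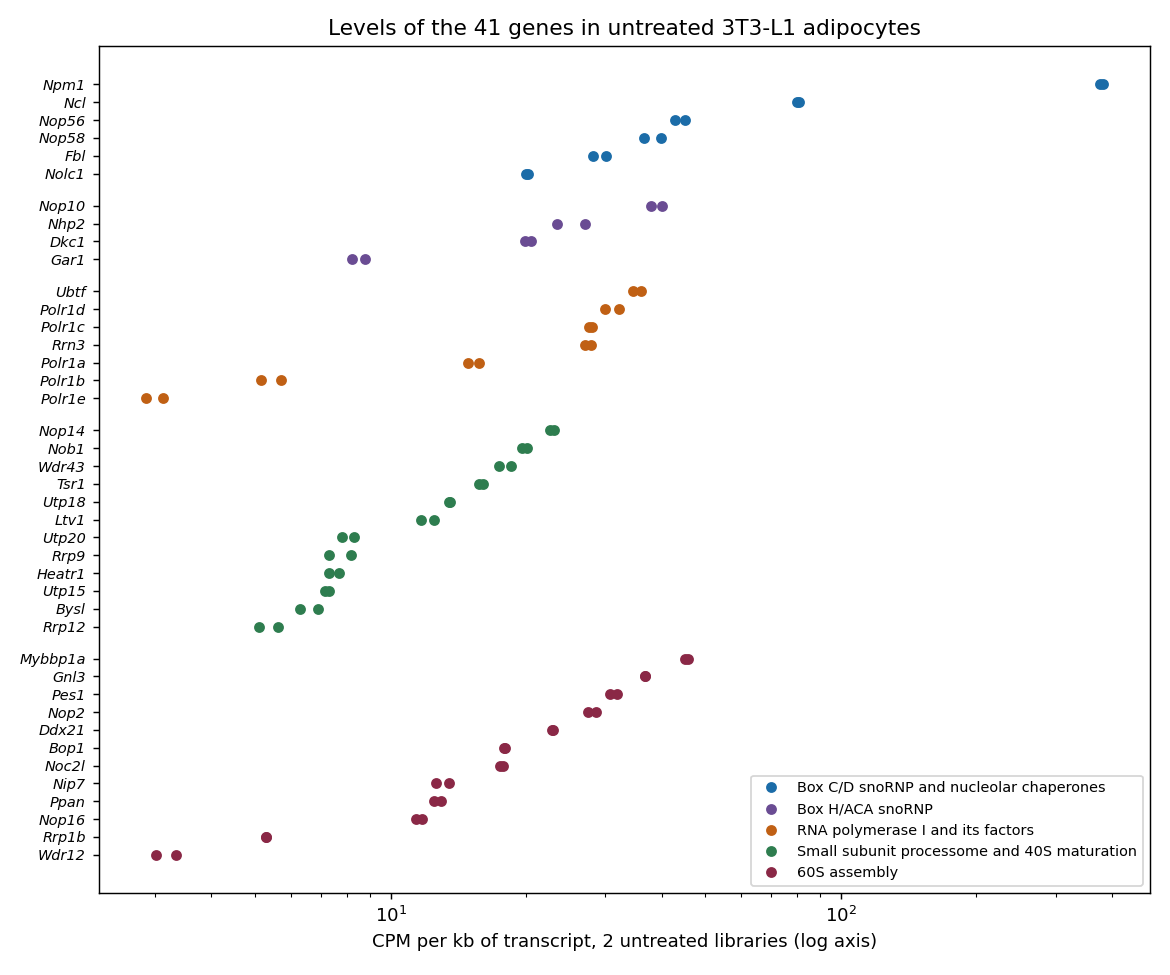
Level of each of the 41 genes in untreated cells, as CPM per kb of transcript on a log axis, with a point for each of the 2 untreated libraries and genes coloured by role. Npm1 at 379 and Ncl at 80.5 lie to the right of the other 39, which span 3.00 to 45.4.

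The promoters were searched for a pair of sequence elements that the choice of genes had not used, and most windows held neither or only 1 of them. Windows from 250 bases before to 50 bases after the transcription start were present for 37 of the 41 genes in RefSeq on GRCm38.p6 (all but Fbl, Npm1, Rrp12 and Bop1). The E-box CACGTG, which is the same on both strands and is the sequence bound by MYC with MAX and by related factors, was in 9 of the 37 (24.3%), against 8.09% of the 27025 genes with a window. CCGGAAG, a core bound by ETS family factors, searched on both strands, was in 14 (37.8%) against 9.93%. Neither motif contains the other, and 5 genes (13.5%) held both, against 1.12% of all genes: Rrn3, Utp18, Ltv1, Tsr1 and Nop2. The 27025 genes were not limited to those that passed the filter on low counts, as all 41 members did. A match describes the letters only, and no factor's binding was measured. These 5 are printed as the members with both elements, chosen for their letters and not for their expression, from 120 bases before the start to 30 bases from the start onwards, 5′ to 3′ in the direction of the gene, with the E-box and the ETS core in capitals, the core reading CTTCCGG where it lies on the other strand.
Rrn3: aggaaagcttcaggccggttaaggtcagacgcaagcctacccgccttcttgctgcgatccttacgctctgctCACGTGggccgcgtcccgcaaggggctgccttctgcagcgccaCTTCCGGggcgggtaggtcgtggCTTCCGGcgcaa
Utp18: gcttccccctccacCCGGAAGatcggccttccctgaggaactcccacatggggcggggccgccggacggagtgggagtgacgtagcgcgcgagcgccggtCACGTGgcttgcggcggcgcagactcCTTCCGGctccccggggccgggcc
Ltv1: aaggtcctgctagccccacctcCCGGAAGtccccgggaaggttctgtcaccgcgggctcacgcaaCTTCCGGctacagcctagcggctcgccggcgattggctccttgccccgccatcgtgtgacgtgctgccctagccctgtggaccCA
Tsr1: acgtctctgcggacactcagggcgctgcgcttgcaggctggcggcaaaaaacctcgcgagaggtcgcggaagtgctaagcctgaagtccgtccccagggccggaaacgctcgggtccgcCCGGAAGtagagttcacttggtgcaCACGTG
Nop2: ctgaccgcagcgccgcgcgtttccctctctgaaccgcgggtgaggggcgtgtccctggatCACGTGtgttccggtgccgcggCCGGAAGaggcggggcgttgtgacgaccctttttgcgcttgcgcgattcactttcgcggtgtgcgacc
On GRCm38.p6 the stretch of Rrn3, the initiation factor TIF-IA, is chr16:13780579-13780728, plus strand, and it has an E-box 48 bases before the start and CTTCCGG across the start, beginning 5 bases before it, and again 18 bases after it. That of Utp18, a small subunit processome protein, is chr11:93885737-93885886, minus strand, with the E-box 20 bases before the start. That of Ltv1, a factor in 40S maturation and export, is chr10:13193108-13193257, minus strand, with CCGGAAG 98 and 55 bases before the start, and its E-box begins 28 bases after the start and runs past the printed end. That of Tsr1, a late 40S maturation factor, is chr11:74897960-74898109, plus strand, where CCGGAAG begins 1 base before the start and CACGTG 24 bases after it, and that of Nop2, a methyltransferase of the 60S rRNA, is chr6:125131763-125131912, plus strand, with the elements 60 and 38 bases before it. The 5 genes lay between 26.8 and 102 CPM in every library, though the value of Tsr1 may include reads shared with another gene. None of the 5 passed the test in any comparison described here.

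Differences between the groups were bounded for every member. All 41 genes had a 95% interval for their log2 fold change that lay within 0.5 of 0 (less than 1.41-fold either way) in each of the 4 comparisons between groups and in the interaction, and Npm1 alone passed an adjusted p of 0.05 in any of them (edgeR quasi-likelihood test, Benjamini-Hochberg adjustment over all genes tested). In A66 against untreated, 34 of the 41 intervals lay within 0.25 of 0 (less than 1.19-fold), and the corresponding numbers were 37 for palmitate against untreated, 36 for palmitate plus A66 against palmitate, 33 for palmitate plus A66 against A66 and 20 for the interaction. The median range between the highest and the lowest group mean was 0.12 (log2) for the 41 genes, 0.17 for all 14587 genes tested and 0.12 for the 8992 genes whose mean level lies in the members' range. The members' range was thus that of other genes at their level. Between replicates 1 and 2 of a group the members' median difference was 0.036 (log2) with palmitate, where 28 of the 41 were higher in replicate 1, and 0.012 with palmitate plus A66, where 27 were. It was -0.0059 in untreated cells and -0.013 with A66, where 18 and 20 were higher in replicate 1.

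**Figure D2:**
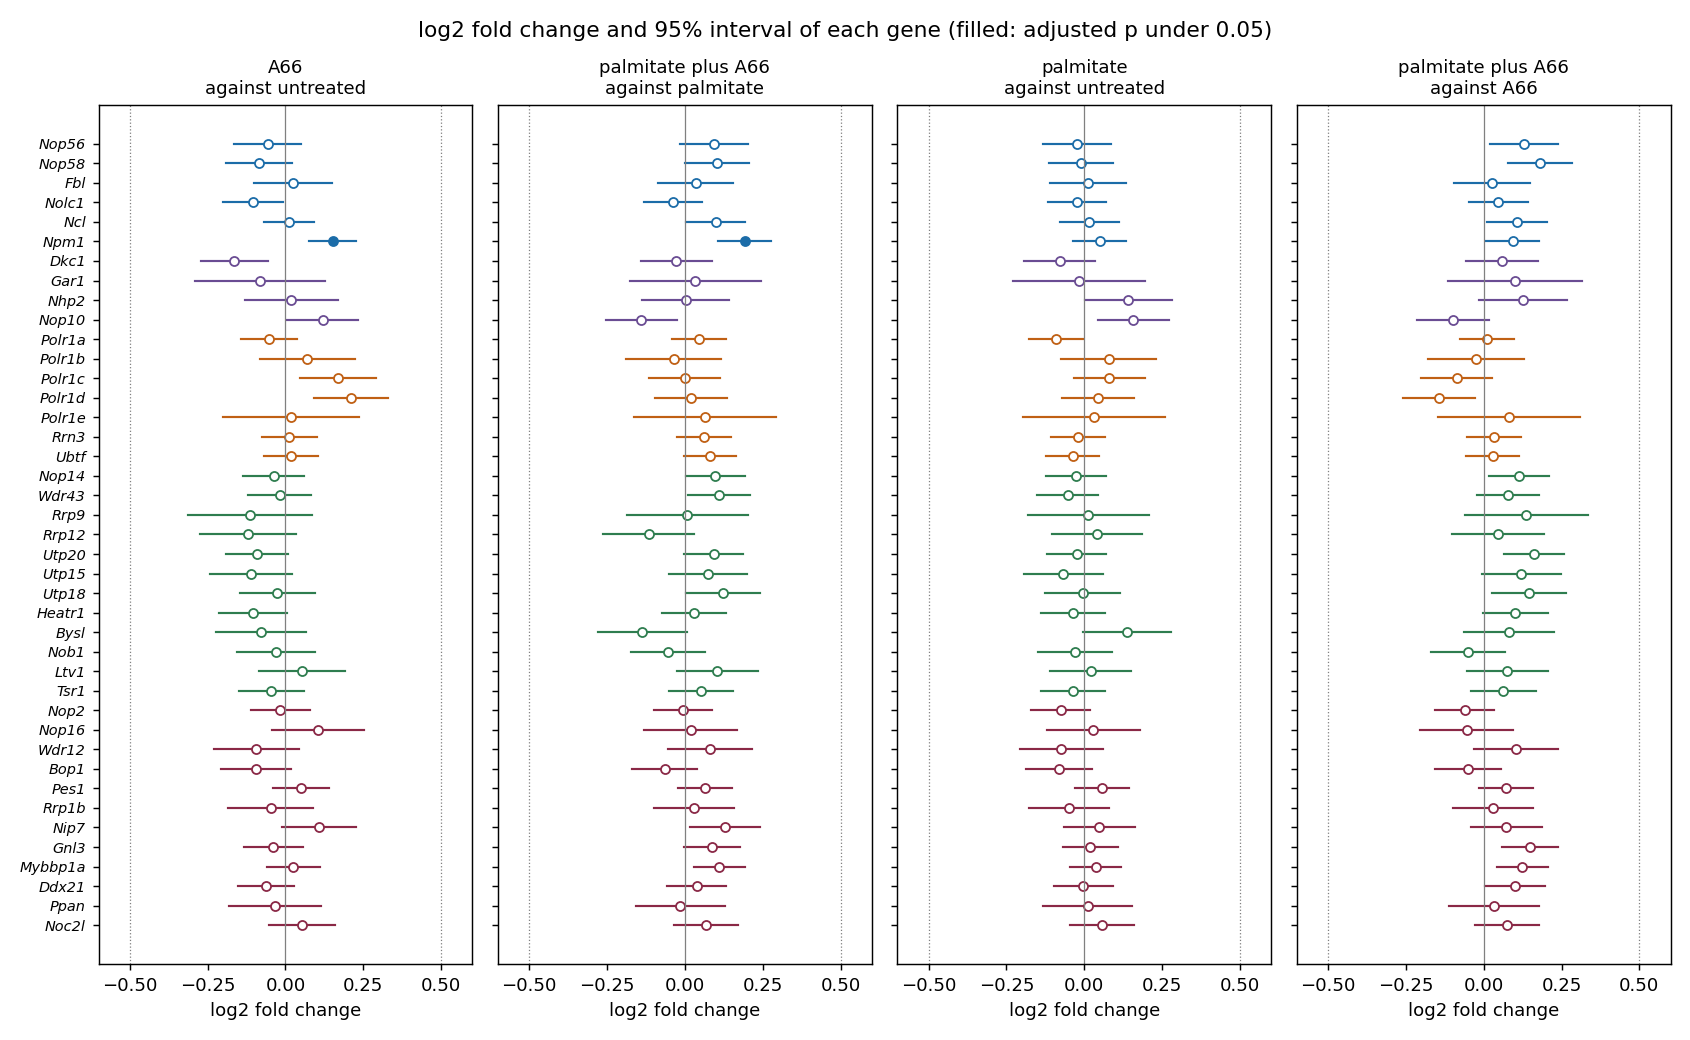
Log2 fold change (point) with its 95% interval (line) for each of the 41 genes, coloured by role, in 4 comparisons, where filled points passed an adjusted p of 0.05 and dotted lines mark 0.5 either side of 0. Every interval lies between the dotted lines, and Npm1 in the 2 panels on the left holds the only filled points.

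Npm1 was higher in the libraries labelled A66 than in those labelled untreated. The gene was at 613.7 and 623.3 CPM in the untreated libraries and at 689.4 and 681.7 CPM in the A66 libraries. Both A66 libraries thus lay above both untreated libraries, and the log2 fold change was 0.15 (SE 0.037, 1.11-fold, edgeR adjusted p = 0.0330), a direction that rests on these labels. This was 1 of 41 members called, against 1.84% of all genes tested in this comparison, and 6 members had an unadjusted p under 0.05, against 12.8% of all genes. The call depends on which libraries are fitted. With the same test on all 8 libraries the adjusted p of Npm1 was 0.0823, without A66 replicate 1 it was 0.349, and without A66 replicate 2 it was 0.220.

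The next genes by p-value in A66 against untreated did not pass the test. Polr1d, a small subunit that RNA polymerase I shares with RNA polymerase III, was at 38.4 and 35.9 CPM in untreated cells and at 43.2 and 42.4 CPM with A66. Its groups did not overlap, and its log2 fold change was 0.21 (SE 0.057, edgeR adjusted p = 0.0640). Its adjusted p ran from 0.00963 (without untreated replicate 1) to 0.442 (without A66 replicate 1) when 1 library was left out, and from 0.0288 (no filter on low counts) to 0.139 over the other alternatives. Dkc1, the pseudouridine synthase of the box H/ACA snoRNP, was at 55.8 and 57.5 CPM in untreated cells and at 52.0 and 49.0 CPM with A66. The A66 libraries were the lower ones, and the log2 fold change was -0.16 (SE 0.052, adjusted p = 0.128). By role, 6 of the 7 polymerase genes had a positive log2 fold change with A66 and 11 of the 12 small subunit processome genes a negative one, with medians of 0.018 and -0.062. Over all 41, 17 were positive with a median of -0.029, against 49.6% positive and a median of -0.0011 over all genes. Libraries of the 2 groups did not overlap for 20 of the 41, 8 higher and 12 lower with A66, where 42.7% of all genes did not overlap. In the same comparison 9 of 10 proliferation markers were negative (median -0.15, 3 at an unadjusted p under 0.05), 5 of 10 adipocyte markers and 3 of 7 preadipocyte and fibroblast markers tested had an unadjusted p under 0.05, and neither edgeR nor DESeq2 called any of them. Their part in the values of the nucleolar genes was not tested.

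With palmitate present, A66 again went with a higher Npm1. Its level was 659.8 and 620.2 CPM with palmitate and 731.2 and 731.9 CPM with palmitate plus A66. The libraries with both agents were the highest of all 8, and the log2 fold change over palmitate was 0.19 (SE 0.041, 1.14-fold, edgeR adjusted p = 0.00904). This was 1 of 41 called, against 2.81% of all genes tested, and 9 members had an unadjusted p under 0.05, against 14.4% of all genes. The call was lost without palmitate replicate 2 (adjusted p = 0.120), without palmitate plus A66 replicate 1 (0.0697) and without replicate 2 of that group (0.0701). The difference between the A66 effects with and without palmitate was 0.044 for Npm1, with a 95% interval from -0.076 to 0.16 (interaction, edgeR adjusted p = 0.911). This difference rests on the labels of the A66 and untreated libraries, and would be another if they were exchanged.

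Behind Npm1, neither of the next genes passed in palmitate plus A66 against palmitate. Mybbp1a was at 203.5 and 202.5 CPM with palmitate and at 221.8 and 216.7 CPM with both, which did not overlap, at a log2 fold change of 0.11 (SE 0.040, edgeR adjusted p = 0.159). Nop10, the smallest core protein of the box H/ACA snoRNP, was at 48.4 and 48.1 CPM with palmitate and at 41.7 and 45.9 CPM with both, here lower, at -0.14 (SE 0.055, adjusted p = 0.218). Leaving out replicate 1 of the combination gave -0.072 for Nop10, and leaving out its replicate 2 gave -0.21. Positive values were found for 30 of the 41, with a median of 0.046, against 49.7% of all genes and a median of -0.00079. Libraries did not overlap for 19 higher and 5 lower members, where 44.3% of all genes did not overlap. Scaling by library size alone gave 27 positive and a median of 0.027. The box C/D genes and chaperones had the highest median of the 5 roles, 0.096, and the box H/ACA genes the lowest, -0.013. Without palmitate replicate 2 the median over the 41 was 0.016. In the same comparison 3 of the 10 adipocyte markers were lower in edgeR (Retn, Slc2a4 and Cidec, list median -0.17), and 1 of 7 preadipocyte and fibroblast markers tested was lower (Col1a1, list median -0.11). Of 3 macrophage and leukocyte markers tested 0 were called in edgeR or DESeq2, with 2 at an unadjusted p under 0.05. They did not move together (list median 0.47). Cd68 went from a mean of 4.03 to 5.57 CPM and Lyz2 from 3.52 to 2.49 CPM, and Csf1r held at most 15 counts in any library. The part of these markers in the values of the nucleolar genes was not tested.

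For palmitate alone no member passed the test. edgeR called 0 members, against 1.17% of all genes tested, DESeq2 also called 0, and 3 members had an unadjusted p under 0.05, against 12% of all genes. These were Nop10, Polr1a and Nhp2. Nop10 was at 42.1 and 44.3 CPM in untreated cells and at 48.4 and 48.1 CPM with palmitate, so that the palmitate libraries were higher, at a log2 fold change of 0.16 (SE 0.055, edgeR adjusted p = 0.203). Polr1a was at 144.6 and 137.0 CPM without and 131.9 and 132.3 CPM with palmitate, at -0.091 (SE 0.042, adjusted p = 0.379). Nhp2, which binds the H/ACA guide RNA, was at 24.4 and 28.1 CPM without and 29.8 and 28.3 CPM with palmitate, at 0.14 (SE 0.068, adjusted p = 0.410). The groups did not overlap for any of the 3, by the narrowest margin for Nhp2. Without untreated replicate 1 the value of Nhp2 was 0.047 and that of Polr1a -0.053, and without untreated replicate 2 that of Nhp2 was 0.25. Among all 41, 20 were positive with a median of -0.0026, against 50.2% positive over all genes, and the libraries did not overlap for 8 higher and 8 lower members, where 40.5% of all genes did not overlap. That median ran from -0.033 to 0.027 when 1 library was left out, and these ends came from leaving out palmitate replicate 1 and replicate 2. In this comparison 9 of 10 adipocyte markers were negative (median -0.068) with 1 lower in edgeR, Lpl (-0.19, adjusted p = 0.0331), and 1 of 7 preadipocyte and fibroblast markers tested was higher, Col1a1 (0.25, 0.00331), and their part in the values of the nucleolar and ribosomal protein genes was not tested.

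Of the 4 pairwise comparisons, palmitate plus A66 against A66 had the most members at an unadjusted p under 0.05, 11 of 41. Of the 41 genes, 33 had a positive log2 fold change (median 0.075), against 50.2% of all genes and a median of 0.00044, and with scaling by library size alone 32 were positive. No member passed in edgeR, against 2.73% of all genes tested, 11 had an unadjusted p under 0.05, against 14.6%, and DESeq2 called 1, Mybbp1a, at an adjusted p of 0.0490. Nop58, a core box C/D protein, was at 60.4 and 62.8 CPM with A66 and at 69.3 and 70.2 CPM with both, at a log2 fold change of 0.18 (SE 0.050, edgeR adjusted p = 0.0525). Utp20, a large scaffold protein of the early small subunit precursor, was at 66.1 and 66.9 CPM with A66 and at 75.1 and 73.7 CPM with both, at 0.16 (SE 0.046, adjusted p = 0.0623). Gnl3 (nucleostemin, a nucleolar GTPase) was at 68.9 and 70.2 CPM with A66 and at 77.8 and 76.4 CPM with both, at 0.15 (SE 0.043, adjusted p = 0.0705). Libraries did not overlap for 25 higher and 6 lower members, where 46.6% of all genes did not overlap. In all 3 of the named genes both libraries with the combination lay above both A66 libraries. They lie next to the threshold, and in a fit on the 4 libraries of these groups alone all 3 passed, with adjusted p-values of 0.0190 for Nop58, 0.0296 for Utp20 and 0.0447 for Gnl3. With 1 library left out the adjusted p ran from 0.0293 to 0.434 for Nop58, from 0.0458 to 0.395 for Utp20 and from 0.0612 to 0.436 for Gnl3, and each of these highest values came without A66 replicate 1. In the same comparison 6 of the 10 adipocyte markers were lower, among them Retn at -0.32 (edgeR adjusted p = 0.000295) and Plin1 at -0.28 (0.00234). Of 3 macrophage and leukocyte markers tested (list median 0.30), Cd68 was higher at 0.91 (edgeR adjusted p = 0.0014). Lyz2 went the other way, from a mean of 3.10 CPM with A66 to 2.49 CPM with both. The part of these markers in the values of the nucleolar genes was not tested. In bulk RNA fewer cells of a type and less RNA per cell cannot be told apart.

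**Figure D3:**
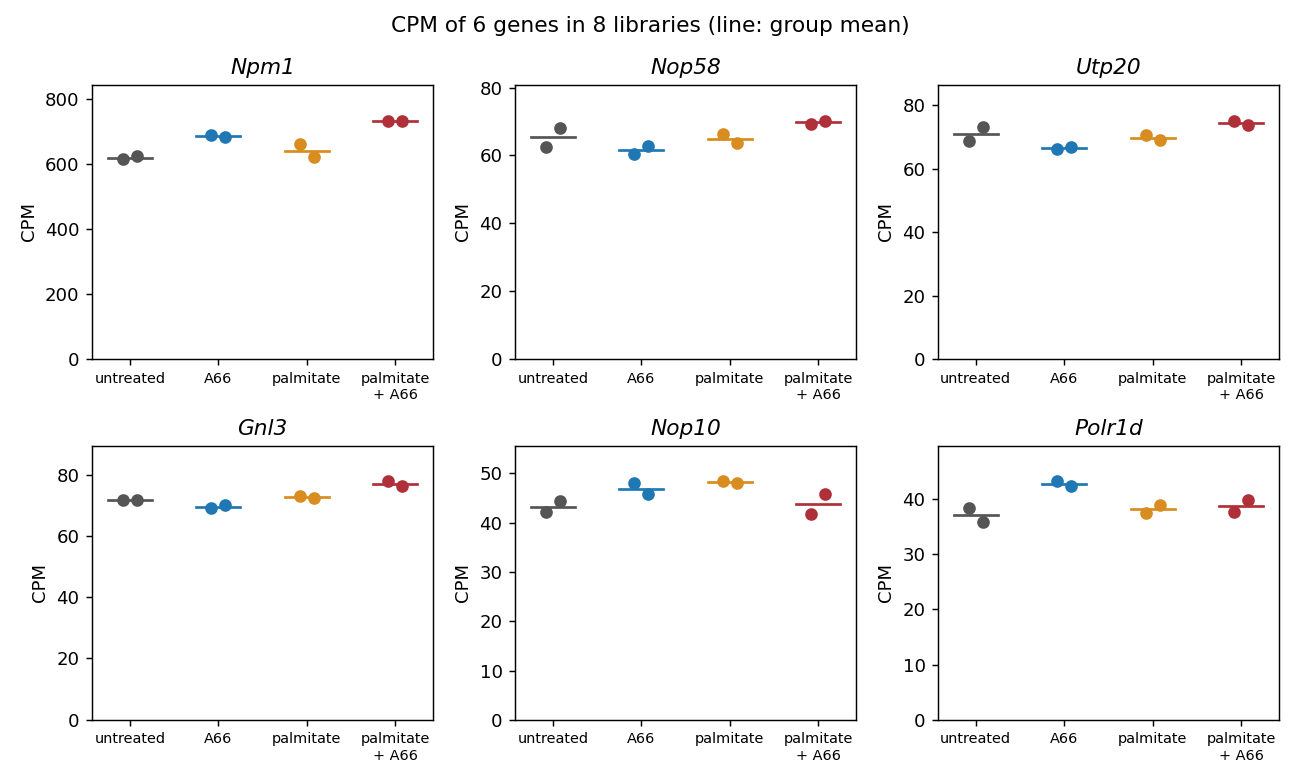
CPM of 6 of the genes in the 8 libraries by group, each point being 1 library and each line a group mean, with axes from 0. Npm1 runs from 613.7 to 731.9 CPM, and Nop58, Utp20 and Gnl3 have their lowest mean with A66 and their highest with palmitate plus A66.

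The interaction asks whether the A66 effect differed between cells with and without palmitate. All its values rest on the labels of the A66 and untreated libraries, and would differ if these were exchanged. It had 0 members called by edgeR and 0 by DESeq2, against 0.00686% of all genes tested, and 8 members with an unadjusted p under 0.05, against 7.92%. The smallest p was that of Nop10, whose A66 effect was 0.12 without palmitate and -0.14 with it (difference -0.26, 95% interval -0.42 to -0.094, edgeR adjusted p = 0.407). Utp20 had an interaction of 0.19 (SE 0.065, adjusted p = 0.477) and Nop58 of 0.19 (SE 0.070, adjusted p = 0.494). Over the 41 genes 33 interactions were positive, with a median of 0.066, against 50.6% of all genes and a median of 0.0021. The small subunit processome genes had the highest median interaction of the 5 roles, 0.13, with 10 of 12 positive. Without untreated replicate 2 the interaction of Nop58 was 0.13. The median half-width of the members' interaction intervals was 0.16.

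Across the 4 groups, the combination tended to hold the highest level. Its mean was the highest for 25 of the 41 genes (61.0%), while over all genes tested it was the highest for 27.3%. The lowest mean was that of A66 for 18 members (43.9%, against 23.9% of all genes) and that of untreated cells for 15 (36.6%, against 25.6%). Both combination libraries lay above the other 6 for 13 members, namely Nop56, Nop58, Npm1, Rrn3, Nop14, Utp20, Utp18, Ltv1, Pes1, Nip7, Gnl3, Mybbp1a and Noc2l, against 7.9% of all genes. By role, the combination was highest for 5 of the 6 box C/D and chaperone genes, 8 of the 12 small subunit processome genes, 7 of the 12 genes of 60S assembly, 3 of the 7 polymerase genes and 2 of the 4 box H/ACA genes. Among the polymerase genes, Polr1c and Polr1d were highest in both A66 libraries. The sizes were small. Relative to the untreated mean, the median of the 41 was 0.074 and 0.039 (log2) in the combination libraries, -0.033 and -0.022 with A66, and 0.028 and -0.034 with palmitate. Over the 8 libraries the median correlation of a pair of members was 0.20 among 820 pairs, of which 296 were negative and 203 above 0.5, and all pairs share the same libraries and scaling.

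**Figure D4:**
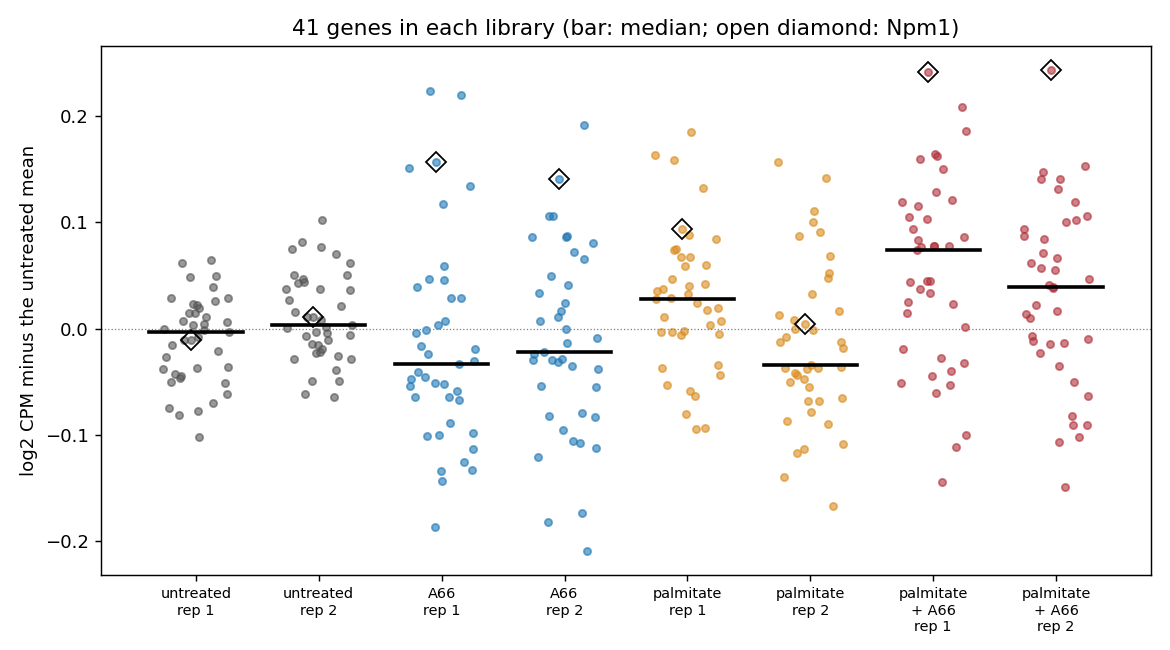
Log2 CPM of the 41 genes in each of the 8 libraries, as the difference from each gene's untreated mean, with a bar for the median and an open diamond for Npm1. Most values lie within 0.2 of 0, and the medians of the combination libraries, 0.074 and 0.039, are the highest.

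Other genes of the pathway were taken from lists written by function, and the lists were not tested against the members. Of 46 further small subunit processome and 40S genes, 17 were positive with A66 (median -0.029) and 37 in palmitate plus A66 against A66 (median 0.040), and edgeR and DESeq2 called none in either comparison, with 3 and 6 at an unadjusted p under 0.05, against 12.8% and 14.6% of all genes. Of 48 further 60S assembly genes, 19 and 36 were positive in the same comparisons (medians -0.014 and 0.052). In edgeR 2 of the 48, Gtpbp4, a nucleolar GTPase of 60S assembly, and Tma16, were higher with palmitate plus A66 than with A66 alone (0.17, edgeR adjusted p = 0.0435, and 0.25, 0.0205) and than with palmitate alone (0.20, 0.0113, and 0.24, 0.0288), against 2.73% and 2.81% of all genes called, with 7 and 6 of the 48 at an unadjusted p under 0.05, against 14.6% and 14.4%. Gtpbp4 was at 83.5 and 84.3 CPM with both agents and between 71.5 and 75.6 CPM in the other 6 libraries. The 15 genes of RNA polymerase III and its factors, Brf1, Brf2, Bdp1 and Maf1 among them, had medians of 0.0055 and -0.012. The 7 subunits particular to RNA polymerase II had 0.015 and -0.055. None of either list was called by either tool, against 1.84% and 2.73% of all genes in edgeR. At an unadjusted p under 0.05 were 0 and 4 of the 15, and 0 and 1 of the 7. The 8 other RNA polymerase I genes had medians of -0.061 and 0.052, again with none called by either tool and 0 and 1 at an unadjusted p under 0.05.

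Among regulators of rRNA synthesis, Myc was between 37.1 and 43.2 CPM in the 8 libraries, and its log2 fold change was 0.071 with A66 (edgeR adjusted p = 0.717) and 0.11 in palmitate plus A66 against palmitate (0.458). Mtor, the kinase of the growth pathway below PI3K, gave -0.056 (0.660) and -0.083 (0.385), and Trp53 -0.053 (0.779) and 0.035 (0.855). Of 21 regulators tested, 1 was called with A66 (against 1.84% of all genes) and 1 in palmitate plus A66 against palmitate (against 2.81%). Cdkn1a, a cyclin-dependent kinase inhibitor and target of p53, was lower with A66, at 125.8 and 125.6 CPM without and 112.5 and 107.2 CPM with it (log2 fold change -0.19, edgeR adjusted p = 0.0173). Mxd4, a partner of MAX that opposes MYC, was lower in palmitate plus A66 than in palmitate, at 250.03 and 263.3 CPM against 225.7 and 233.8 CPM (-0.16, adjusted p = 0.0354). Among 12 genes of the integrated stress response, 4 were higher in palmitate plus A66 than in A66, Ppp1r15a (0.37, edgeR adjusted p = 0.000122), Asns (0.32, 0.000130), Atf3 (0.68, 0.000171) and Atf4 (0.25, 0.000579), against 2.73% of all genes called. In palmitate plus A66 against palmitate 1 of the 12 was higher, Atf3 (0.38, adjusted p = 0.0309), and 1 lower, Ddit4 (-0.44, 0.00316), and with palmitate alone 0 were called higher in edgeR, 1 with RLE size factors and 2 in DESeq2, with 11 positive and 7 at an unadjusted p under 0.05.

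The cytosolic ribosomal protein genes, whose products are assembled by this machinery, took other values in the same libraries. In the libraries labelled A66, against those labelled untreated, 77 of 79 were positive, at a median of 0.17, and 41 were higher in edgeR (against 1.84% of all genes called), led by Rps21 (0.57, adjusted p = 5.89e-07) and Rpl36 (0.52, 6.67e-06), while 17 of the 41 assembly genes were positive at a median of -0.029, and both signs would turn if the labels were exchanged. With palmitate alone 77 of 79 were positive at a median of 0.10, with 0 called in edgeR (against 1.17%), 1 in DESeq2 and 42 at an unadjusted p under 0.05 (against 12% of all genes), while the assembly genes were at -0.0026. In palmitate plus A66 against A66 the order was turned. There 68 of the 79 ribosomal protein genes were negative (median -0.046, 1 lower in edgeR, Rpl36, at -0.23 with an adjusted p of 0.0261, against 2.73% of all genes called), while 33 of the 41 assembly genes were positive (median 0.075). In palmitate plus A66 against palmitate the ribosomal protein median was 0.013, and -0.0056 with scaling by library size alone, against 0.046 for the assembly genes, and 1 ribosomal protein gene was higher in edgeR, Rps21 (0.28, adjusted p = 0.0203), against 2.81% of all genes called. The lists were not tested against each other, and the comparisons share groups of libraries.

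**Figure D5:**
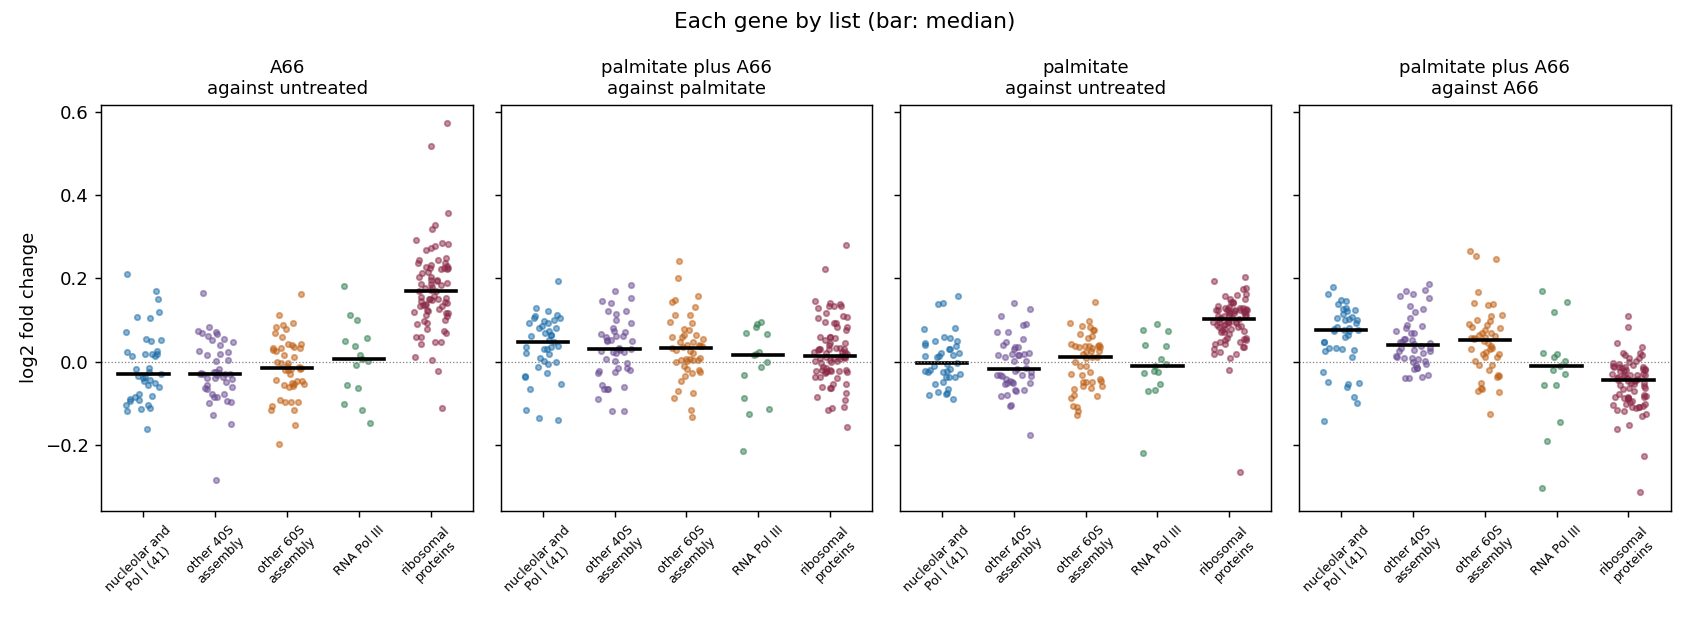
Log2 fold change of each gene (point) and the median (bar) for the 41 nucleolar and RNA polymerase I genes, further 40S and 60S assembly genes, genes of RNA polymerase III and its factors, and cytosolic ribosomal proteins in 4 comparisons. In the libraries labelled A66 against those labelled untreated, with the sign resting on these labels, the ribosomal proteins have a median of 0.17 and the 41 genes -0.029, and in palmitate plus A66 against A66 the medians are -0.046 and 0.075.

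Reads shared with other genes could affect some of these values. Npm1, on chromosome 11 at 33152287 to 33163206 (minus strand, 11 exons, GRCm38, GENCODE M21), has near-identical copies, but those in the count table held 19 counts against 270812 for Npm1 over the 8 libraries. Fbl, Bysl, Tsr1 and Wdr12 share at least 200 bases at 95% identity or more with genes that hold more counts than they do, and their values are uncertain to that extent. For 13 members an exon overlaps a gene on the opposite strand, with the longest overlaps in Tsr1 (1159 bases with Srr), Noc2l (585 bases with Samd11) and Bysl (361 bases with Ccnd3), and whether the counting used strand is not given in the sources used here. The search for shared bases covered both strands and kept overlapping genes. The longest match of Bysl was 361 bases, as long as its overlap with Ccnd3, so that both may be the same stretch. A total of 23 small nucleolar RNA genes lie inside 8 of the members.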

How the data were processed

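Poly(A) RNA was sequenced from 8 cultures of 3T3-L1 adipocytes as stranded paired-end libraries of 100-base reads. The authors aligned the reads to GRCm38 with TopHat 2.0.11 and counted them per Ensembl gene with HTSeq, and the raw counts were deposited, 1 column per library. The annotation release and strand setting are not given in the sources used here. The 6 columns of the authors' own DESeq2 comparison, deposited beside the counts, hold a mean signal of normalized counts, log2 fold changes, their errors, a Wald score, and a p-value with its adjusted value. They were not used. Every direction rests on the sample labels.

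Symbols, positions and lengths came from GENCODE M21, which matched 42548 of 43629 genes (307 unmatched genes had counts), with the longest principal transcript as length. edgeR 4.0.16 in R 4.3.3 was run with TMM scaling, the filterByExpr filter (minimum count 10), quasi-likelihood tests and Benjamini-Hochberg adjustment over all genes tested, with calls at 0.05. A66 was compared with untreated cells in their 4 libraries (14158 genes), and the other comparisons and the interaction were fitted on all 8 (14587 genes). Log2 fold changes give the first group named over the second. The biological coefficient of variation was 0.0377 and 0.0406 in these fits. Replicates gave a mean chi-square of 6.33, 6.15, 8.99 and 7.8 per gene in untreated, A66, palmitate and combined libraries, so no library was a repeat of another. Library totals set the precision, and floors of 3 counts cover counting error only, since no molecular identifiers are described. Intervals are at 95%.

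The 41 members and the lists of other genes were chosen with earlier results of these data known. In each comparison fewer than 3 members passed, and the 3 with the smallest p are given in full. Of the other lists, at least the first 2 called genes by p-value in each comparison (or the 1 called) are named, and Myc, Trp53 and Mtor whatever their values. The promoters shown were picked for holding both motifs, since the rule for called members left none with a window. Copies were searched with BLAST+ 2.17.0. Alternatives were RLE scaling, library size alone, DESeq2 1.42.0, no filter, 10 counts in every library, the replicate number as a block, a loess offset on transcript length (span 0.4), other libraries in the fit, and leaving out each library. Scripts were tested on simulated counts.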

Additional observations from a re-analysis of the deposited data

How the results depend on the processing

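No named member changed sign in its comparison under any setting. Of the members' own medians in the 5 comparisons, that for palmitate, which lies near 0, was the one that did, and ran from -0.013 to 0.0055 with every library kept. Of the named members, 203 results under alternatives kept their side of the threshold, 15 came to pass and 7 no longer passed. Npm1 with A66 lost its call with scaling by library size alone (0.14, edgeR adjusted p = 0.0630), which left 0 members called, and with all 8 libraries in the fit, which also left 0. With no filter on low counts, 2 members were called for A66 (Npm1 and Polr1d), and the numbers of all genes called rose to 459 for A66, 396 for palmitate, 652 for palmitate plus A66 against palmitate, 664 for palmitate plus A66 against A66 and 91 for the interaction. In palmitate plus A66 against A66, 1 member was called by DESeq2 (Mybbp1a) and 1 (Nop58) with no filter, with at least 10 counts in every library and with the transcript length offset, and 3 in the fit on the 4 libraries compared, where 689 genes in all were called. The interaction had 2 genes called with library size alone and 21 with DESeq2.

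Scaling by library size alone shifted the median of all genes by less than 0.1, but the share of calls that were higher fell from 58.2% to 45% for A66, from 53.8% to 44.1% for palmitate, from 34.6% to 23.4% for palmitate plus A66 against palmitate and from 53.5% to 40.4% for palmitate plus A66 against A66.

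With the replicate number as a block, 1 member, Nop58, was called in palmitate plus A66 against A66 (adjusted p = 0.0492) and 3 genes in the interaction, and no other count of members changed. The labels name no shared batch, and the correlations of same-numbered deviations between groups ran from -0.147 to 0.153 over 8956 genes, so the numbers were not taken as pairs.

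Leaving out 1 library at a time gave 0 to 2 members called for A66, 0 to 1 for palmitate plus A66 against palmitate and 0 to 2 for palmitate plus A66 against A66. The numbers of all genes called were 98 to 635, 71 to 245 for palmitate, 147 to 494 and 107 to 502 in these comparisons, and 0 to 10 for the interaction. The members' median was -0.028 to -0.017 for A66, -0.033 to 0.027 for palmitate, 0.016 to 0.067 for palmitate plus A66 against palmitate, 0.051 to 0.081 for palmitate plus A66 against A66 and 0.038 to 0.079 for the interaction. A group reduced to 1 library is assumed to vary like the others. With 2 libraries per group the median half-width of the members' 95% intervals was about 0.11 (log2), and a change of 0.21 (Polr1d with A66) did not pass the test.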
